A study of Mus musculus with 6 samples.

Results

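Coagulation and fibrinolysis were described here through 38 of 22911 named mouse genes on the array. They are receptors, clotting factors, anticoagulants, other protease inhibitors and fibrinolytic proteins of the textbook pathway. They were listed by name with earlier results of these data known. The 38 genes were measured by 47 of 56605 probes. Vascular endothelial cells (VECs, CD45-CD90-CD31+, which line blood vessels) and lymphatic endothelial cells (LECs, CD45-CD90+CD31+, which line lymphatics) were sorted from digested small intestine of female mice, with no treatment named in the labels. The study used C57BL/6 and B6D2F1 mice, but which of them gave these cells, and their age, is not given in the sources used here. Each population had 3 one-color arrays (VEC 2, 3 and 4, and LEC 6, 7 and 8). GEO's description field names VECs for the LEC arrays too, so the titles and source names set the groups. No source states whether the 3 arrays of a population are from different animals, and p-values therefore measure spread between these samples that may be technical.

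Clotting starts when tissue factor meets factor VIIa, and runs through factors X and V to thrombin, which cleaves fibrinogen and activates platelets and endothelium through protease-activated receptors. Healthy endothelium holds this in check with thrombomodulin and the protein C receptor, which turn thrombin into an activator of protein C, and with tissue factor pathway inhibitor. Fibrin is removed by plasmin, which tissue-type and urokinase-type plasminogen activators release from plasminogen and serpins restrain. Lymph also holds clotting factors, though it clots less readily than blood, and most plasma factors are made by hepatocytes.

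Signals are given as normalized log2 signal, the log2 of the background-subtracted intensity minus the array's 75th percentile, so 0 is the brightness of the probe at that percentile. Levels were compared between populations for 1 probe at a time, never between genes. A probe was tested where the scanner software marked it well above background throughout at least 1 population. Each VEC array had 33400 to 35266 such probes and each LEC array 30930 to 35510, and no spot was saturated. The labels held against markers: all 8 lymphatic markers, among them Prox1 and Lyve1, were higher in LECs, and all 8 blood vascular markers were higher in VECs. Their summed linear signals were 1310 to 1350 in LECs against 4.3 to 4.71 in VECs for the first list, and 39.6 to 50.9 against 1580 to 1720 for the second. In sorted populations like these, fewer cells of a type and less RNA per cell cannot be told apart.

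Of the 38 genes, 26 had a tested probe, and 18 of these were well above background on all 6 arrays. Another 6 were tested through VECs alone and 2 through LECs alone, a route that favours genes that differ. The genes were also chosen with earlier results of these data known, so the counts and shares are a description. By limma with Benjamini-Hochberg adjustment over 33777 probes, 20 of the 26 passed an adjusted p of 0.05, or 76.9%, beside 66.9% of all 14971 tested genes. Higher in LECs were 9 of the 26 (34.6%), beside 34.9% of all tested genes, and higher in VECs were 11 (42.3%), beside 32.0%. With a difference over 5-fold, 12 of the 26 (46.2%) passed, beside 9.87% of all tested genes. With genes that were below background in a whole population taken at their lower bound, 11 did (42.3%). The share of all tested genes under that rule was not computed, so 9.87% is no match for it. With normexp background correction 7 passed (26.9%), beside 5.34%. The median absolute log2 difference was 1.81, beside 0.46. The median signed log2 difference was -0.21, beside 0.02. Over 2-fold were 18 of the 26 (69.2%), beside 25.1% of all tested genes. Among all tested probes 21603 passed (64.0%), 10537 higher in LECs (31.2%) and 11066 in VECs (32.8%), a split that became 12922 and 6916 with no scaling between arrays.

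**Figure D1:**
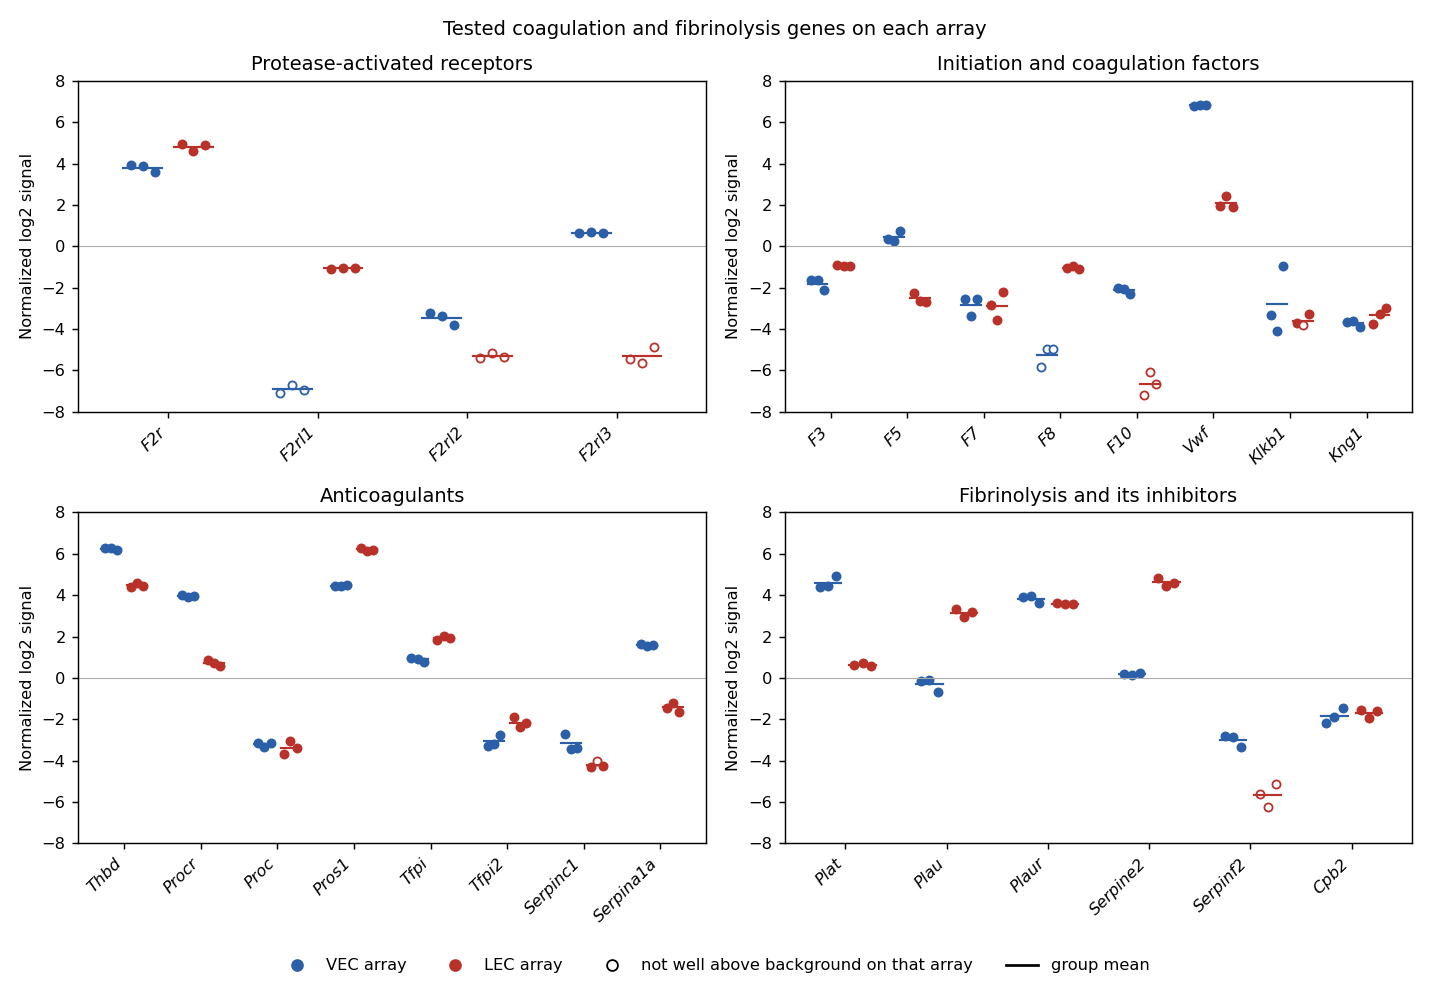
Normalized log2 signal (vertical axis) of the 26 tested genes on each of 3 VEC arrays (blue) and 3 LEC arrays (red), in 4 panels by role, with group means as bars and open points where the probe was not well above background on that array. Vwf, Plat, Procr and F2rl3 lie far higher in VECs, while F2rl1, F8, Plau and Serpine2 lie far higher in LECs.

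The protease-activated receptors divided between the populations: F2r and F2rl1 were higher in LECs, F2rl2 and F2rl3 in VECs. F2r encodes PAR1, the main thrombin receptor of endothelium. F2rl3 encodes PAR4, a thrombin receptor of mouse platelets, and F2rl2 encodes PAR3, a thrombin-binding partner. F2rl1 encodes PAR2, which trypsin-like proteases and the tissue factor complex activate. Promoter sequence is shown for F2r, F2rl2 and F2rl3 and for F3, tissue factor, from RefSeq on GRCm38.p6, 250 bases before to 50 after the start of transcription. F2r lies at chr13:95618417-95618716 (minus strand), F2rl2 at chr13:95696670-95696969 (plus strand), F2rl3 at chr8:72761409-72761708 (plus strand) and F3 at chr3:121723287-121723586 (plus strand). Capitals mark CACCC, the box read by KLF factors, and TGANTCA, the AP-1 site, searched on both strands; in F3 the second AP-1 match overlaps a CACCC.
F2r: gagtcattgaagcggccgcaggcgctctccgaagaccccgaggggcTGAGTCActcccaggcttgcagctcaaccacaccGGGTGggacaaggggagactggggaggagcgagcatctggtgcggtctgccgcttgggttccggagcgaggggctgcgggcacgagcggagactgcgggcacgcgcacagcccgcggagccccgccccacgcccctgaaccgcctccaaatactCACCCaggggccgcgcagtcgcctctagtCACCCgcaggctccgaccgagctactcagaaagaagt
F2rl2: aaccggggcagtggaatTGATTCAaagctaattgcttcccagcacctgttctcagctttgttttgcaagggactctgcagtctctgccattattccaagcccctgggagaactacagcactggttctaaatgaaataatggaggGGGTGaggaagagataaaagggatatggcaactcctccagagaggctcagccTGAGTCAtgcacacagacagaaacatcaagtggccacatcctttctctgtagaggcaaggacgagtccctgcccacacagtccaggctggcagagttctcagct
F2rl3: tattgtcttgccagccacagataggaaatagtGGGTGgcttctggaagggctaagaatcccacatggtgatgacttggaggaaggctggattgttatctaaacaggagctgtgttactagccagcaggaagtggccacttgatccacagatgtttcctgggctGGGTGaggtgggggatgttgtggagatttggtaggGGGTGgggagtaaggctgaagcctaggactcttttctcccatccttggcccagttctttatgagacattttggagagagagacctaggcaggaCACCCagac
F3: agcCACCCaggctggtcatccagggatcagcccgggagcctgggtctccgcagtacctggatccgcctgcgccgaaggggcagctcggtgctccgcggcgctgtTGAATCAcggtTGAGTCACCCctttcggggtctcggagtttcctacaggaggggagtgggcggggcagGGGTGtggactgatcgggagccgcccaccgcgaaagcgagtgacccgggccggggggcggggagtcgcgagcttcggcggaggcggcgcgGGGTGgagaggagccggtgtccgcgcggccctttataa

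F2r read 3.93, 3.88 and 3.58 on VEC arrays 2, 3 and 4 and 4.94, 4.62 and 4.89 on LEC arrays 6, 7 and 8, in normalized log2 signal. Both populations were bright and did not overlap, with LECs higher by 1.02 ± 0.13 (log2 difference ± SE, n = 3 each), or 2.03-fold (limma adjusted p = 9.6e-04). F2rl1 read -1.07, -1.06 and -1.03 in LECs and -7.07, -6.70 and -6.94 in VECs. No VEC array was well above background for it, so the difference is a bound: at least 12.8-fold higher in LECs (adjusted p = 5.5e-07). A bound sets the bright population against the faintest signal marked well above background on each array, or the gene's own reading where brighter. Some unmarked probes were brighter than that faintest signal, so the bound is approximate. The adjusted p beside a bound tests the difference before the bound was applied. With normexp background correction, which adds an offset of 50 to every corrected intensity, the same F2rl1 difference was 3.55-fold. That offset by itself shrinks the fold of a gene near background, here and in the normexp values below.

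F2rl3 showed the opposite pattern, at 0.65, 0.70 and 0.66 in VECs and -5.46, -5.62 and -4.86 in LECs. It was well above background on no LEC array, and VECs exceeded LECs at least 35.8-fold (adjusted p = 3.3e-06), and 10.1-fold with normexp. F2rl2 was dim, at -3.20, -3.38 and -3.79 in VECs and -5.39, -5.17 and -5.37 in LECs, none of the latter well above background. VECs were at least 2.04-fold higher (adjusted p = 1.7e-04), and 1.5-fold with normexp. With low readings raised to the level of the bound, the limma adjusted p of F2rl2 was 0.024. Both AP-1 matches of F2rl2 and the 4 CACCC boxes of F2rl3 are in the lines printed above.

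**Figure D2:**
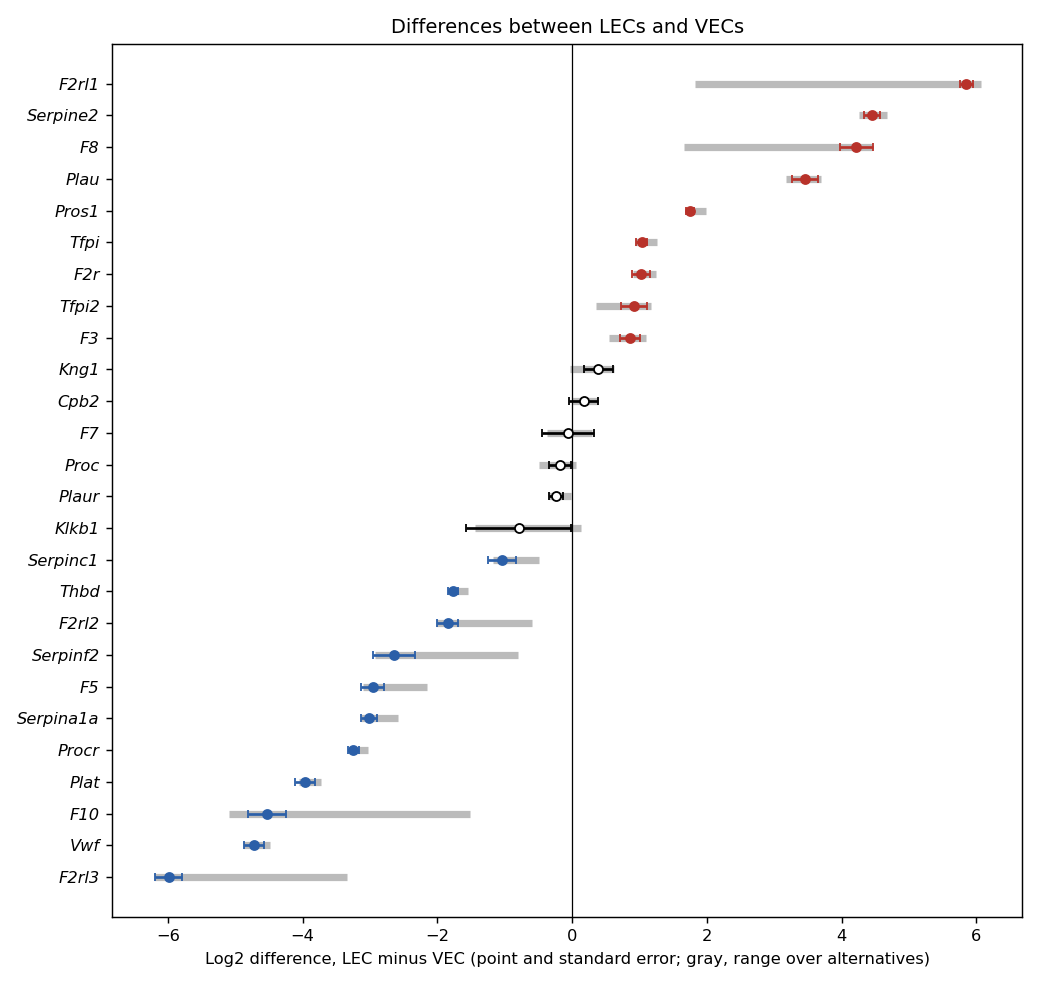
Log2 difference, LEC minus VEC (horizontal axis), of the 26 tested genes with its standard error; red passed the threshold higher in LECs, blue higher in VECs and white did not pass. Gray bars span the values under 21 alternative settings, and the widest belong to genes dim in 1 population, such as F2rl1, F8 and F10.

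Among 17 genes of initiation and the clotting factors, 8 were tested, of which F3 and F8 were higher in LECs, Vwf, F5 and F10 were higher in VECs, and F7, Klkb1 and Kng1 did not pass. Vwf, the platelet-tethering carrier of factor VIII stored in Weibel-Palade bodies, had the largest difference of these genes measured on all 6 arrays. It read 6.80, 6.82 and 6.84 in VECs and 1.96, 2.45 and 1.90 in LECs, so both populations were clearly measured and lay far apart. The log2 difference was -4.72 ± 0.15, or 26.4-fold higher in VECs (adjusted p = 3.0e-06). F8, the cofactor that VWF carries, went the other way. It read -1.06, -0.93 and -1.10 in LECs and -5.81, -4.97 and -4.97 in VECs. With no VEC array well above background, LECs were at least 13.1-fold higher (adjusted p = 2.6e-05), and 3.16-fold with normexp.

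F5, the cofactor of factor X, read 0.35, 0.27 and 0.74 in VECs and -2.25, -2.62 and -2.67 in LECs. It was 7.81-fold higher in VECs (log2 difference -2.96 ± 0.17, adjusted p = 2.8e-05), and 4.47-fold with normexp. F10, whose product cleaves prothrombin, was dimmer at -1.99, -2.07 and -2.28 in VECs, and not well above background in LECs at -7.21, -6.07 and -6.66. VECs were at least 5.18-fold higher (adjusted p = 4.0e-05), and 2.86-fold with normexp. With low readings raised to the level of the bound, the limma adjusted p of F10 was 5.1e-04. Of 8 platelet genes, whose cells are another source of Vwf and F5, Pf4, Gp1bb and Clec1b were well above background on all 6 arrays, Pf4 3.21-fold higher in LECs, and Gp9 and Gp1ba on none. The summed signal of the 8 was 0.424 to 0.463 in VECs and 0.658 to 0.734 in LECs. Summed over 6 red cell genes, the signal was higher in VECs, at 26.1 to 64.0 against 0.708 to 3.68 in LECs. The part of platelets or red cells in these results was not tested.

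F3, tissue factor, which starts clotting, read -1.62, -1.63 and -2.13 in VECs and -0.88, -0.95 and -0.96 in LECs. The groups did not overlap and LECs were higher by 0.86 ± 0.15, or 1.82-fold (adjusted p = 0.0032), and 1.45-fold with normexp. Within the slide row that held both populations (VEC 2, 3 and 4 with LEC 6), the F3 difference was 0.91 with adjusted p = 0.052, from a fit that assumes the lone LEC array to vary like the VEC arrays. F7, whose product pairs with tissue factor, read -2.54, -3.37 and -2.53 in VECs and -2.83, -3.56 and -2.22 in LECs, which overlap (adjusted p = 0.91). Klkb1, plasma prekallikrein, rested on VEC 4, at -0.97 beside -3.34 and -4.11, with LECs between -3.79 and -3.28 (log2 difference -0.79 ± 0.78, adjusted p = 0.41). Without VEC replicate 4 its difference was 0.13. Kng1, the kininogen it cleaves, read -3.66, -3.61 and -3.89 in VECs and -3.75, -3.27 and -2.97 in LECs, and differed by 0.39 ± 0.21 (adjusted p = 0.14). Another Kng1 probe, which was not tested, lay the other way, at -3.86, -2.97 and -5.18 in VECs and -7.25, -6.12 and -6.71 in LECs. It was well above background on 2 VEC arrays and no LEC array. A further Kng1 probe was well above background on no array.

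The anticoagulants, listed here with other protease inhibitors such as Serpina1a and Tfpi2, also divided, and of 10 genes 8 were tested. Pros1, Tfpi and Tfpi2 were higher in LECs, Thbd, Procr, Serpina1a and Serpinc1 were higher in VECs, and Proc did not pass. Thbd, thrombomodulin, was bright in both populations, at 6.27, 6.28 and 6.18 in VECs and 4.39, 4.59 and 4.44 in LECs. VECs were 3.40-fold higher (log2 difference -1.77 ± 0.078, adjusted p = 9.8e-06). Procr, the endothelial protein C receptor that presents protein C to thrombomodulin, differed more. It read 4.02, 3.93 and 3.96 in VECs and 0.84, 0.74 and 0.58 in LECs, or 9.53-fold higher in VECs (log2 difference -3.25 ± 0.084, adjusted p = 1.4e-06). Proc, protein C itself, was dim and overlapped, at -3.13, -3.33 and -3.17 in VECs and -3.70, -3.07 and -3.39 in LECs (log2 difference -0.18 ± 0.17, adjusted p = 0.38).

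Pros1, protein S, the cofactor of activated protein C and of TFPI, was higher in LECs. It read 4.46, 4.44 and 4.48 in VECs and 6.29, 6.15 and 6.20 in LECs, or 3.36-fold (log2 difference 1.75 ± 0.064, adjusted p = 4.9e-06), and its other tested probe gave 3.1-fold. Tfpi, the inhibitor of the tissue factor complex, read 0.97, 0.92 and 0.78 in VECs and 1.84, 2.01 and 1.91 in LECs. LECs were 2.05-fold higher (log2 difference 1.03 ± 0.082, adjusted p = 1.1e-04), and its other probes gave 1.60-fold and 2.10-fold in the same direction. Tfpi2, a related inhibitor of plasmin and trypsin, was dim in both populations. It read -3.29, -3.20 and -2.74 in VECs and -1.91, -2.40 and -2.17 in LECs. LECs were 1.89-fold higher (adjusted p = 0.0064), and 1.27-fold with normexp.

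Serpina1a, an alpha-1-antitrypsin gene, read 1.64, 1.56 and 1.58 in VECs and -1.44, -1.20 and -1.64 in LECs. VECs were 8.09-fold higher (log2 difference -3.02 ± 0.12, adjusted p = 6.1e-06). Its near-identical copies Serpina1b to Serpina1e differed by -2.00 to -3.05 on the log2 scale, and the probes may not tell the copies apart. The summed signal of 7 hepatocyte genes, which include Serpina1a itself, was 3.04 to 3.39 in VECs and 0.671 to 0.858 in LECs. Without Serpina1a it was 0.0907 to 0.41 in VECs and 0.329 to 0.489 in LECs, and no array was well above background for Alb, Apob, Fgb or Apoh. Serpinc1, antithrombin, the main inhibitor of thrombin, was dim, at -2.71, -3.43 and -3.37 in VECs and -4.33, -4.04 and -4.24 in LECs, of which 2 of 3 arrays were well above background. It was 2.06-fold higher in VECs (adjusted p = 0.0057), and 1.4-fold with normexp. Within the shared slide row, with its lone LEC array, the log2 difference of Serpinc1 was -1.16.

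The plasminogen activators divided between the populations: Plat was higher in VECs, Plau in LECs. Of 7 fibrinolysis genes 6 were tested, with Plau and Serpine2 higher in LECs, Plat and Serpinf2 higher in VECs, and Plaur and Cpb2 not past the threshold. Plat, tissue-type plasminogen activator, read 4.40, 4.44 and 4.92 in VECs and 0.61, 0.73 and 0.56 in LECs. VECs were 15.5-fold higher (log2 difference -3.96 ± 0.15, adjusted p = 5.8e-06). Plau, urokinase, read -0.15, -0.10 and -0.69 in VECs and 3.34, 2.93 and 3.18 in LECs, or 11-fold higher in LECs (log2 difference 3.46 ± 0.19, adjusted p = 2.3e-05). A second Plau probe gave 10.3-fold. Its receptor Plaur was bright in both populations, at 3.92, 3.96 and 3.61 in VECs and 3.60, 3.59 and 3.57 in LECs. Its arrays did not overlap, but the log2 difference of -0.24 ± 0.11 did not pass (adjusted p = 0.091).

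Serpine2, protease nexin 1, an inhibitor of thrombin, urokinase and plasmin, had the largest log2 difference toward LECs among the 18 coagulation genes well above background on all 6 arrays. It read 0.17, 0.12 and 0.25 in VECs and 4.85, 4.43 and 4.61 in LECs, or 21.9-fold (log2 difference 4.45 ± 0.12, adjusted p = 1.4e-06). Fibroblasts and glia are other known sources of Serpine2. Of their genes, 3 of 4 tested fibroblast genes and 4 of 6 glial and neuronal genes were higher in LECs, beside 34.9% of all tested genes. Their summed signals were 2.19 to 2.97 and 3.25 to 4.01 in LECs and 0.909 to 1.56 and 1.08 to 1.44 in VECs, and their part in the Serpine2 difference was not tested. Serpinf2, the main plasmin inhibitor of plasma, read -2.82, -2.88 and -3.34 in VECs and, not well above background, -5.63, -6.25 and -5.11 in LECs. VECs were at least 2.78-fold higher (adjusted p = 5.5e-04), and 1.76-fold with normexp. With low readings raised to the level of the bound, the limma adjusted p of Serpinf2 was 0.0056. Cpb2, the fibrinolysis inhibitor TAFI, read -2.20, -1.90 and -1.47 in VECs and -1.55, -1.93 and -1.59 in LECs (log2 difference 0.17 ± 0.21, adjusted p = 0.50).

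Early response genes, which tissue digestion can induce, were higher in VECs for 15 of 18 genes, beside 32.0% of all tested genes. Their summed signals were 2760 to 3370 in VECs against 1120 to 1340 in LECs. Their part in the differences of the genes higher in VECs, such as Thbd and Plat, was not tested. Macrophages and myeloid cells are other sources of Plau, F3 and F5. Of their 12 tested genes, 8 were higher in LECs, beside 34.9% of all tested genes, and 3 in VECs, beside 32.0%. The summed signal of the list was 70.4 to 75.8 in LECs and 79.7 to 85.2 in VECs, most of it from Itgam. Without Itgam it was 6.12 to 6.71 in LECs and 5.3 to 5.72 in VECs, and its part in these results was not tested.

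The 12 untested genes were F2, F9, F11, F12, F13a1, F13b, Fga, Fgb, Fgg, Serpind1, A2m and Plg, most of them known as liver products. F9, F12, F13a1, F13b, Fgb and Serpind1 had no probe well above background on any array, so their level in these cells was not detectable here. The others were well above background on 1 to 3 arrays, not filling either population. Fgg, a fibrinogen chain, reached an intensity of 71.9 on LEC 7 alone and lay between 2.78 and 4.35 elsewhere. A2m, a broad protease inhibitor, reached 38.8 on LEC 8 alone, against 3.08 to 6.38 elsewhere. Fga, another fibrinogen chain, had 1 of its 2 probes between 9.65 and 22.3, well above background on VEC 2, VEC 4 and LEC 6. F2, prothrombin, lay between 4.41 and 14.6 and passed on VEC 4 alone. The Fga and F2 readings were faint. Plg, plasminogen, lay between 15.1 and 20.5 on the arrays of both populations, well above background on 2 VEC arrays. F11 was well above background on VEC 3 alone, at 19.6.

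**Figure D3:**
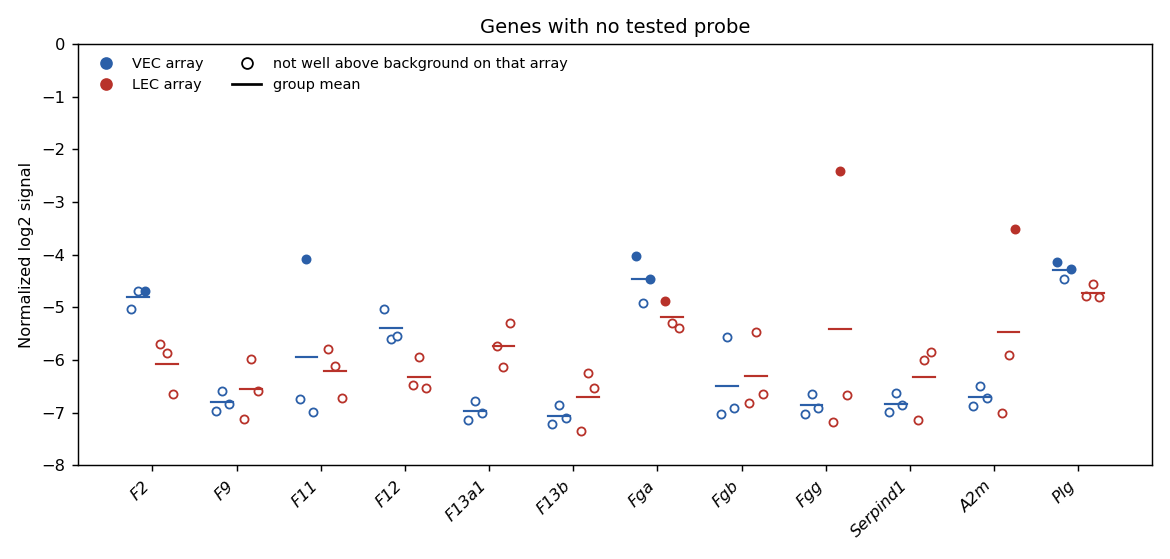
Normalized log2 signal (vertical axis) of the 12 genes with no tested probe on each VEC array (blue) and LEC array (red), with group means as bars and open points where the probe was not well above background. The 2 filled red points far above their neighbours are Fgg on LEC 7 and A2m on LEC 8.

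Of 38 genes, 29 had a RefSeq promoter entry, 33 promoters in all. CACCC was in 21 of these (63.6%), beside 57.5% of all 32851 promoters of the same length. TGANTCA was in 9 (27.3%), beside 7.81%: F2, F2r, F2rl2, F3, Fgb, Plaur, Procr, Serpina1a and Tfpi2, which include genes higher in LECs, genes higher in VECs and untested genes. The TATA box TATAAA was in 3 (9.09%), beside 13.6%. The GATA site AGATAA was in 4 (12.1%), beside 11.2%. The forkhead site TGTTTAC was in 2 (6.06%), beside 3.65%. A match of letters shows no binding.

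Other lists of the pathway, also chosen with earlier results of these data known, show where the division ran beyond the 38 genes. Platelet restraint by endothelium was higher in VECs for 5 of 6 genes, beside 32.0% of all tested genes, with a median log2 difference of -3.88, beside 0.02. Entpd1, which degrades ADP, was 32.4-fold higher in VECs, Ptgs1, which makes the prostacyclin precursor, 25.3-fold, Nos3, nitric oxide synthase, 9.57-fold, and Nt5e, which makes adenosine, at least 5.52-fold. Ptgis, prostacyclin synthase, was 1.71-fold higher in VECs (adjusted p = 0.040), and Anxa5, which covers exposed phosphatidylserine, was 1.49-fold higher in LECs. Of the kinin genes 4 of 5 tested were higher in VECs, beside 32.0%, with a median log2 difference of -1.02: Bdkrb2, a bradykinin receptor, 27.1-fold, Ace, which degrades bradykinin, 25.3-fold, Prcp 2.02-fold and Bdkrb1 1.48-fold. Serping1, the inhibitor of kallikrein, was 6.81-fold higher in LECs, and no array was well above background for Kng2, a second kininogen.

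Of 15 Weibel-Palade body genes other than Vwf, 8 were higher in LECs, beside 34.9% of all tested genes, and 5 in VECs, beside 32.0%, with a median log2 difference of 0.28. Selp, P-selectin, was 21.8-fold higher in VECs, Myrip, which tethers the granule, 18.0-fold and Igfbp7 13.8-fold. Cd63, a granule membrane tetraspanin also found in other organelles, was 16.7-fold higher in LECs, Sytl4, a granule release protein, 4.25-fold and Angpt2 2.44-fold. Among VWF and factor V partners, Mmrn1, a factor V carrier that is also in the lymphatic marker list, was 2980-fold higher in LECs. The size of that fold rests on faint VEC intensities of 25.9 to 49.1. Thbs2 was 1.25-fold higher in LECs (adjusted p = 0.042), Thbs1 2.17-fold and Mmrn2 1.38-fold higher in VECs, and no array was well above background for Adamts13, which cleaves VWF, or Gp1ba, its platelet receptor.

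Clearance receptors were higher in LECs for 3 of 5 tested genes, beside 34.9% of all tested genes, Stab1 9.18-fold, Asgr1 8.17-fold and Stab2 6.41-fold, and Lrp1 and Asgr2 did not pass. The median log2 difference of the 5 was 2.68. Among the ligands and receptors of protein S signalling, Tyro3 was 2.43-fold, Gas6 1.74-fold and Axl 1.39-fold (adjusted p = 0.032) higher in LECs, and Mertk was 5.38-fold higher in VECs. Vitamin K and factor export genes showed small differences: Ggcx, the vitamin K-dependent carboxylase, was 1.94-fold, Lman1 1.29-fold and Vkorc1 1.28-fold higher in LECs, and Vkorc1l1 1.59-fold, Furin 1.48-fold and Mcfd2 1.34-fold higher in VECs. Of the 4 plasminogen receptors only Eno1 passed (25.0%), beside 66.9% of all tested genes. Eno1 was 1.22-fold higher in VECs (adjusted p = 0.013), while Anxa2, S100a10 and Plgrkt differed by 0.05, -0.16 and 0.18 on the log2 scale. Of the other serpins, Serpinb6a was 1.57-fold higher in LECs, Serpini1 and Serpinb8 did not pass, and no array was well above background for Serpina5, Serpina10 or Serpinb2.

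**Figure D4:**
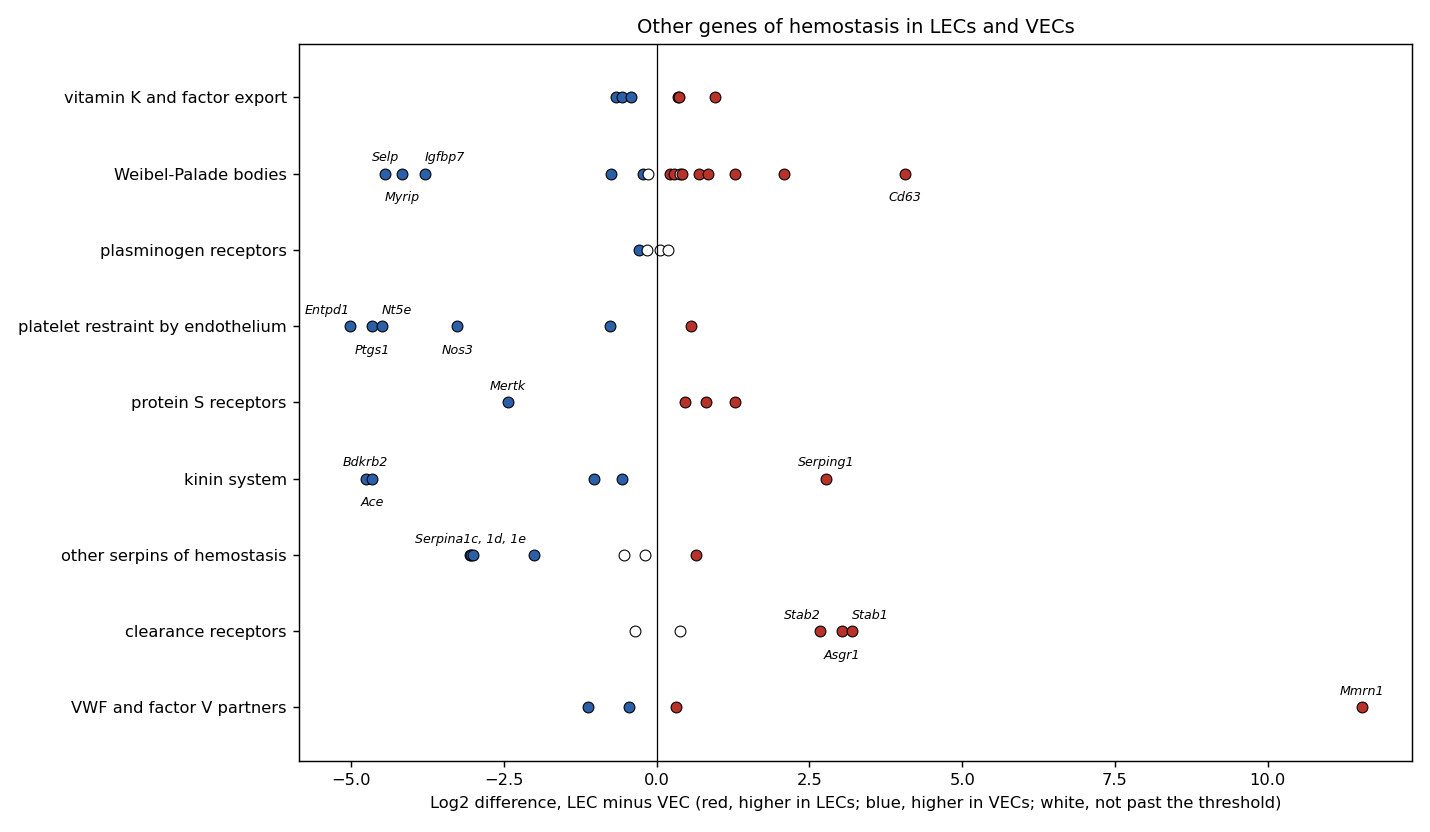
Log2 difference, LEC minus VEC (horizontal axis), of tested genes in 9 lists of the wider pathway (vertical axis), with red higher in LECs, blue higher in VECs and white not past the threshold. Platelet restraint genes lie mostly to the left, clearance receptors to the right, and Mmrn1 stands alone at 11.54.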

How the data were processed

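RNA of the 2 sorted endothelial populations was amplified, labelled with Cy3 and hybridised by the authors to 1-color Agilent mouse arrays, 6 arrays on 1 slide (row 1: VEC 2, 3 and 4 and LEC 6; row 2: LEC 7 and 8). The authors deposited, per array, the background-subtracted intensity of each spot from Agilent Feature Extraction 12.0.3.1. They also deposited a log2 table, which lay within 0.01 of the scanner values plus 1 constant per array for 99.92 to 99.95% of probes and served as an alternative. The study's methods name GeneSpring and ANOVA with no settings.

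Here, outlier spots were left out, spots of a probe averaged, log2 intensities taken and each array's 75th percentile subtracted. Tests were run on probes marked well above background throughout 1 population or both. LECs were compared with VECs with lmFit and eBayes of limma 3.58.1 (R 4.3.3; two-sided, Benjamini-Hochberg over 33777 probes), which was also tested on simulated data. Where a gene had several tested probes, the one brightest on average stood for it. Probes were named through RefSeq accessions, which gave 32994 of 56605 probes 1 gene each. Promoters came from RefSeq, GRCm38.p6. Marker sums are of linear signal relative to the 75th percentile. The 3 arrays per population limit the precision. Every one of the 38 genes is named; of each further list, up to 3 genes per direction past the threshold with the largest difference are named, and all genes of lists of 6 or fewer. The 38 genes and the other lists were chosen with earlier results of these data known. A planned gene of 1 of the further lists is not reported here.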

Additional observations from a re-analysis of the deposited data

How the results depend on the processing

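Over 21 alternatives, 522 of 538 differences of single coagulation genes kept their direction and side of the threshold, no gene past the threshold reversed, and 18 of 20 stayed past it wherever tested. The exceptions were F3 (0.91) and Serpinc1 (-1.16) within slide row 1 alone, where 1 LEC array is assumed to vary like the VEC arrays. With only probes well above background on all 6 arrays, 6 genes were higher in VECs in place of 11, since fewer genes were tested. The plasminogen receptor list held 1 gene past the threshold, but 0 with no filter, in row 1 alone or with slide row as a block, 2 with quantile normalization and 0 to 2 with 1 array left out. The cause of these changes was not tested. Sign changes touched genes not past the threshold in the main setting: F7 was 0.17 and Proc 0.05 with no scaling, and Kng1 was -0.03 in row 1 alone and with the row block. These row settings give the same difference, since row 2 holds LEC arrays only. The alternatives therefore overlap and are not independent of each other. With 1 array left out, F7 ranged from -0.38 to 0.29, Klkb1 from -1.44 to 0.13 and Cpb2 from -0.0028 to 0.36. Genes that passed only under an alternative were Kng1 with no scaling (0.62) and without LEC replicate 6 (0.60), Proc in row 1 alone (-0.49) and Plaur, which passed with an intensity trend (adjusted p = 0.046) and without VEC replicate 4 (-0.35). No scaling moved the median difference over all tested probes from -0.03 to 0.197. Without the filter F2 (-1.27), F12 (-0.93) and F13a1 (1.24) also passed, though F12 and F13a1 were well above background on no array. No paired analysis was possible because the groups share no replicate numbers. Normexp used the median spot signal, the column the files hold for it, and an offset of 50. It shrank differences of genes dim in 1 population, as adding an offset does by itself. Signal near background in a whole population limits F2rl1, F2rl2, F2rl3, F8, F10 and Serpinf2. Faint signal in both populations limits Tfpi2 and Serpinc1, at 1.27-fold and 1.4-fold with normexp, and also F7, Klkb1, Kng1 and Proc.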
